A study of Mus musculus with 23 samples.

Results

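Clone A3 is a line of mouse pancreatic stellate cells labelled as an Egfr knockout (KO) and derived from the stellate cell line PSC4, and it was compared here with PSC4 cells labelled Rosa, whose genotype is given as wild type (WT). The comparison takes in 6 of the 23 RNA-seq libraries of the series, 3 of A3 and 3 of Rosa, and the libraries were chosen by their titles and their cell type label alone. Each library holds stellate cells that had been grown in Matrigel, a basement membrane gel, for 3.5 days together with 1 of 3 pancreatic tumour organoid lines and were then recovered by flow sorting. The A3 libraries are library 21 (grown with organoid line T6-LOH), library 24 (T12-LOH) and library 18 (T69A), and the Rosa libraries are 20 (T6-LOH), 23 (T12-LOH) and 17 (T69A), so each A3 library has a Rosa library from the same organoid line. In the text below, the 3 values of a group are always in the order T6-LOH, T12-LOH and T69A. The other stellate cell libraries, used only where A3 is set beside them, are 3 of a second PSC4 KO clone, B4 (libraries 22, 25 and 19), and 1 each of the PSC5 KO clones C5 (27) and D4 (28) and of PSC5 Rosa (26), all 3 grown with T6-LOH. All A3 libraries come from 1 clone, and the labels state neither how Egfr was edited nor whether Rosa cells are a clone. Each of the 6 libraries joins A3 or Rosa with a different organoid line, so neither has a replicate culture within an organoid line. The p-values thus measure how evenly A3 and Rosa differ across the 3 organoid lines, and not the spread between clones.

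Pancreatic stellate cells are the vitamin A-storing mesenchymal cells of the pancreas. When activated around a tumour they become fibroblasts that lay down collagen, and cancer-associated fibroblasts (CAFs) are commonly sorted into myofibroblastic cells, marked by contractile and matrix genes under TGF-beta, and inflammatory cells, marked by cytokines such as Il6 and Lif under NF-kappaB and JAK/STAT. Egfr encodes the epidermal growth factor receptor, a receptor tyrosine kinase that binds ligands such as amphiregulin, epiregulin and TGF-alpha and signals through ERK and other kinases. Fibroblasts express it, and tumour epithelium is known as a source of its ligands.

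The 6 libraries held between 21823084 and 34828131 estimated counts each. Levels are given as CPM (counts scaled to a common library size, with TMM factors over the 12 stellate cell libraries), and differences as log2 of A3 over Rosa from edgeR's quasi-likelihood test with organoid line as a block. A gene is called where the Benjamini-Hochberg adjusted p over all tested genes is under 0.05. All 24 fibroblast and stellate cell markers averaged at least 1 CPM over the 6 libraries, and together they summed to between 17196 and 33273 CPM in A3 and between 18577 and 29056 CPM in Rosa. The level of epithelial markers, set against that in the organoid libraries, gave a share of organoid RNA of 0.148, 0.15 and 0.575% in A3 and 0.251, 0.152 and 0.682% in Rosa. From Epcam, Krt19 and Cdh1 alone the share was 0.507, 0.186 and 0.786% in A3 and 0.615, 0.185 and 0.925% in Rosa. Of 18 tested epithelial markers 3 were called lower in A3 and none higher (16.7%, against 12.6% of all tested genes; edgeR, median log2 difference -0.38). The 15 immune markers summed to at most 9.22 CPM in A3 and 9.51 CPM in Rosa, and 6 of them were at 0 in all 6 libraries. Mitochondrial transcripts took 2.36% ± 0.102 of counts in A3 and 2.19% ± 0.237 in Rosa (SD, n = 3 each). A two-sided exact permutation test over 20 splits, which ignores the organoid pairs, gave p = 0.4, where the smallest possible is 0.1.

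Egfr mRNA was lower in every A3 library than in any Rosa library, but it was not absent. It stood at 59.7, 106 and 102 CPM in A3, against 287, 298 and 328 CPM in Rosa, so the A3 mean was 29.3% of the Rosa mean. The log2 difference was -1.81 (SE 0.18, edgeR adjusted p = 0.0182). The two-sided exact permutation test over 20 splits, which ignores the organoid pairs, gave p = 0.1, the smallest p it can give. The call was lost with no filter on low counts (edgeR adjusted p = 0.0738) and without library 17 or 18 (edgeR adjusted p = 0.122 and 0.115), while the difference stayed between -1.97 and -1.59 with each library left out in turn. The fall was not even over the transcripts of the gene. The full-length coding transcript (Egfr-201, 10208 bases) had 9.43, 15.9 and 15.9 TPM in A3, against 41.6, 40.0 and 47.2 TPM in Rosa. The shorter coding transcript (Egfr-202, 2943 bases) had 1.48, 2.38 and 3.01 TPM in A3, against 17.1, 20.5 and 25.7 TPM in Rosa, a wider gap in each organoid line. These are Salmon's estimates over transcripts that share sequence, and the ratio of the transcripts was not tested. Clone B4 kept more Egfr, at 118, 221 and 198 CPM, and A3 against B4 differed by -1.02 (SE 0.06, edgeR adjusted p = 0.000519).

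Of 13758 genes tested, 845 (6.14%) were called higher in A3 and 886 (6.44%) lower, 12.6% in all. Most changes were small, with a median size of 0.42 on the log2 scale among the called genes, but the large ones were mainly decreases. At 2-fold or more, 99 called genes were higher and 240 lower, and at 8-fold or more 5 were higher and 62 lower. Every called gene differed in the same direction in all 3 organoid lines. With 3 pairs and organoid line as a block a gene is hardly called otherwise, so this is no separate evidence. The A3 and Rosa libraries did not overlap for 506 of the genes called higher and 623 of those called lower. Of all tested genes, 18.3% had groups that did not overlap. These counts rest on few libraries and on the block. Without the block 12 genes were called higher and 59 lower. Without any 1 of the T6-LOH or T69A libraries (20, 21, 17 or 18), between 122 and 147 were higher and between 189 and 211 lower, of 13824 to 14274 tested. Without library 23 or 24, of T12-LOH, the counts were 1065 and 1033 higher and 1123 and 1142 lower, of 14302 and 13935 tested. Counts given below for a gene list with a library left out are to be read beside these totals. In bulk RNA, fewer cells of a kind and less RNA per cell cannot be told apart.

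The called genes were not spread evenly over the genome. On chromosome 3, 267 of 708 tested genes were lower in A3 and 12 higher, and the median log2 difference of all its tested genes was -0.27. On chromosome 16 the reverse held, with 191 of 420 genes higher, 7 lower and a median of 0.29. Chromosome 8 held 139 genes called higher and 61 called lower of 728. Chromosomes 3, 8 and 16 together carried 677 calls, or 39.1% of all calls on 13.5% of the tested genes. The medians of the other autosomes and of the X chromosome lay between -0.0538 and 0.0346.

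The shift was nearly the same in each organoid line. Among genes of at least 5 CPM, the chromosome 3 median of A3 minus Rosa was -0.256, -0.26 and -0.242, and the chromosome 16 median was 0.305, 0.296 and 0.307. With the tested genes of a chromosome put in map order and cut into 10 equal groups, chromosome 3 was low in every group (medians between -0.321 and -0.208) and chromosome 16 high in every group (between 0.24 and 0.333). Chromosome 8 changed in blocks. Groups 1 to 3 lay between -0.0324 and 0.0203, groups 4 and 5 at 0.267 and 0.202, group 6 at 0.0457, group 7 at -0.276, and groups 8 to 10 between 0.121 and 0.234.

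**Figure D1:**
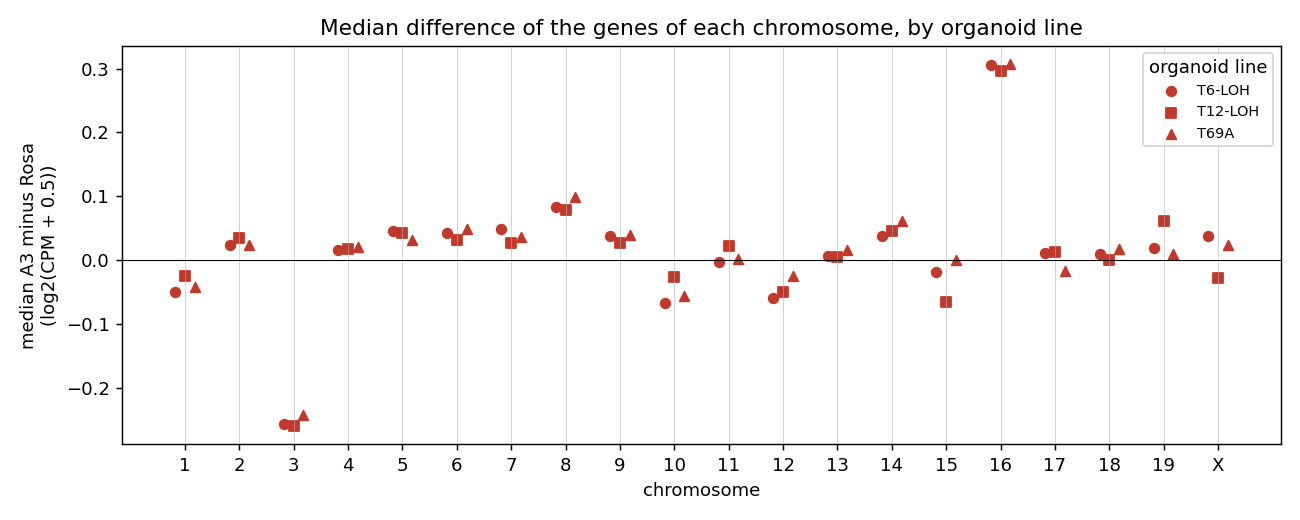
Median A3 minus Rosa difference on the log2(CPM + 0.5) scale (vertical axis) of the genes of each chromosome (horizontal axis) with a mean of at least 5 CPM; the 3 symbols stand for the 3 organoid lines. Chromosome 3 lies near -0.26 and chromosome 16 near 0.3 in all 3 lines, and the other chromosomes lie within 0.1 of 0.

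**Figure D2:**
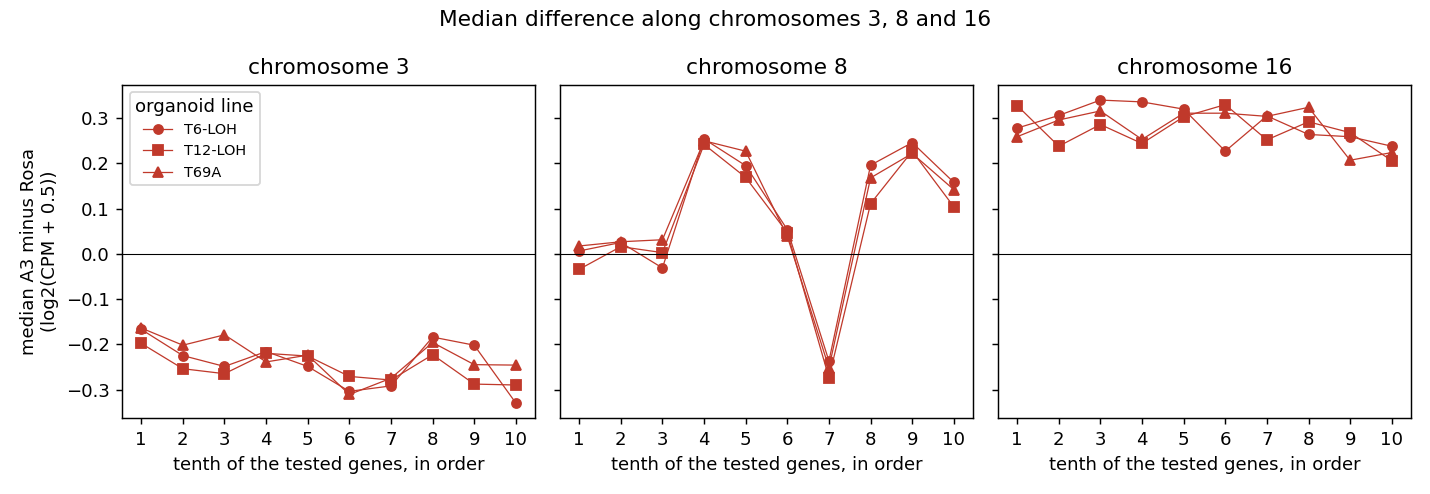
Median A3 minus Rosa difference (vertical axis, log2(CPM + 0.5)) in 10 equal groups of neighbouring tested genes along chromosomes 3, 8 and 16 (horizontal axis, in map order); symbols stand for organoid lines. Chromosomes 3 and 16 are shifted over their whole length, and chromosome 8 alternates between blocks near 0, up and down.

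B4 was shifted on chromosome 3 in the same direction as A3, and the clones otherwise differed in which chromosomes were shifted. B4 minus Rosa, which uses the same Rosa libraries, had medians of -0.538, -0.516 and -0.52 on chromosome 3, of -0.46, -0.471 and -0.522 on chromosome 8, and of 0.493, 0.5 and 0.464 on chromosome 10. Chromosome 4 of B4 was at -0.338, -0.337 and -0.416. Smaller shifts of B4 included chromosome 19, at -0.222, -0.224 and -0.279, and chromosome 12, at 0.21, 0.184 and 0.165. On chromosome 16 B4 minus Rosa was -0.0315, 0.0435 and -0.0236. C5 and D4, each set against PSC5 Rosa, were at -0.0912 and -0.0911 on chromosome 3 and at -0.0666 and -0.0279 on chromosome 16. D4 stood at -0.558 on chromosome 13. The DNA of these lines was not analysed here, and what sets the chromosome-wide shifts was not tested. Outside chromosomes 3, 8 and 16, 503 genes were called higher and 551 lower of 11902 (8.86%), including 204 of the 240 genes at least 2-fold lower and 82 of the 99 at least 2-fold higher. Where a gene named below lies on chromosome 3, 8 or 16, this is said beside it.

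The largest decreases took genes to the edge of detection in A3. Barx1, a homeobox transcription factor of stomach and gut mesenchyme, had 0.23, 0.0647 and 0.141 CPM in A3, against 35.2, 15.4 and 30.7 CPM in Rosa, a log2 difference of -7.52 (SE 0.16, edgeR adjusted p = 2.16e-05). It met a rule, chosen after the values were seen, of under 0.5 CPM in every A3 library and at least 5 CPM in every Rosa library, and no gene met the rule in the other direction. Barx1 was also near absent in B4, at 0.188, 0 and 0 CPM. In PSC5 it stayed expressed, at 84.0 CPM in C5, 12.8 CPM in D4 and 53.4 CPM in PSC5 Rosa.

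Adamts9, a secreted protease that cuts versican and aggrecan, had 0.46, 0.939 and 0.33 CPM in A3, against 28.8, 54.3 and 44.8 CPM in Rosa (log2 difference -6.16, SE 0.19, edgeR adjusted p = 0.00029). It was at 5.69, 24.0 and 12.7 CPM in B4. Tmem26, a transmembrane protein, had 0.965, 0.259 and 0.8 CPM in A3, against 22.2, 26.8 and 25.4 CPM in Rosa (log2 difference -5.29). Barx1, Adamts9 and Tmem26 are shown here by the stretch around their transcription start, 250 bases before and 50 after, as RefSeq gives it for build GRCm38.p6, because they cover high, middle and low CpG content among the genes with the largest decreases. Capitals mark each CG. The Barx1 window (chr13:48662786-48663085, plus strand) holds 50 CG, the Adamts9 window (chr6:92943485-92943784, minus strand) 25 and the Tmem26 window (chr10:68723496-68723795, plus strand) 9.
Barx1: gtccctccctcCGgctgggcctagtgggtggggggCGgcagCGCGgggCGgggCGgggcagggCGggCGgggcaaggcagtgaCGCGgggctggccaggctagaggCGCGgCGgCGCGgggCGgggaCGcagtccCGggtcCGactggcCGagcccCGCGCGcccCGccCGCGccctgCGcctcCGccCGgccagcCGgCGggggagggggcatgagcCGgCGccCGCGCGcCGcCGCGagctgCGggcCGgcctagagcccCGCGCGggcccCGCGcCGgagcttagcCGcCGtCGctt
Adamts9: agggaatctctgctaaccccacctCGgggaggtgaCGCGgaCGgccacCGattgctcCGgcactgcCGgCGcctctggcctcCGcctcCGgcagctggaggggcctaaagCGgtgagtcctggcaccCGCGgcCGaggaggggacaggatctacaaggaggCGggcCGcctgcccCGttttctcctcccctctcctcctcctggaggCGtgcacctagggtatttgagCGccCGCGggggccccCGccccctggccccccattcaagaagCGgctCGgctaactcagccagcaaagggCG
Tmem26: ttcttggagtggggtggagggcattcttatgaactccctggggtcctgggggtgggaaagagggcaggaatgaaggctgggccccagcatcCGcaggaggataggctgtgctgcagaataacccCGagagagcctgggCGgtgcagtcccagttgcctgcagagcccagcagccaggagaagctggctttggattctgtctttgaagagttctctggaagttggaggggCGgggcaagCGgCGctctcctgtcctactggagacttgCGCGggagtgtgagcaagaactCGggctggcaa
CG content was much the same in changed and other genes. The median number of CG in the window, taking the start with the most, was 22 for 678 protein-coding genes called lower, 24 for 665 called higher and 22 for all 9960 tested genes with a window. DNA methylation was not analysed here.

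The rest of the 12 largest decreases covered enzymes, signalling regulators and surface proteins. Rgs2, a brake on G protein signalling, had 0.551, 0.68 and 1.27 CPM in A3, against 20.6, 17.0 and 15.9 CPM in Rosa (log2 difference -4.43, edgeR adjusted p = 0.00316). Dapk1, a calcium/calmodulin-dependent kinase linked to cell death, had 0.551, 0.194 and 0.282 CPM in A3, against 7.7, 5.64 and 9.57 CPM in Rosa (-4.5, edgeR adjusted p = 0.00158). Nkx2-3, a homeobox factor of gut and spleen mesenchyme, had 0.368, 0.0647 and 0.33 CPM in A3, against 5.96, 2.17 and 4.74 CPM in Rosa (-4.13, edgeR adjusted p = 0.00202). In each of these the lowest Rosa library was above the highest A3 library. Htatip2 (log2 difference -4.23), Tspan11 (-4.21) and Cyp7b1, an oxysterol hydroxylase on chromosome 3 (-4.82), were lower to a similar degree. Limch1 and Gstm4 also fell among the 12, and with 0 to 0.0919 CPM and 0 to 0.0941 CPM in A3 their fold is set by a handful of reads. They stood at 0.608 to 6.69 CPM and at 3.69 to 4.69 CPM in Rosa, and Gstm4 lies on chromosome 3 in a cluster of similar glutathione transferase genes.

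The genes chosen by the smallest p included several that fell by much the same amount in each organoid line. Slc38a1, a glutamine transporter, had 17.9, 22.8 and 16.9 CPM in A3, against 57, 72.9 and 53.9 CPM in Rosa (log2 difference -1.68, SE 0.05, edgeR adjusted p = 0.000149). Ptges, the prostaglandin E synthase, had 10.5, 40.9 and 25.4 CPM in A3, against 47.8, 196 and 93.6 CPM in Rosa (-2.12, SE 0.08, edgeR adjusted p = 0.000494). The groups did not overlap for either gene, and in A3 as in Rosa Ptges was highest with T12-LOH. Cyba, a subunit of NADPH oxidase on chromosome 8, fell by 1.61 on the log2 scale, Isyna1, the inositol phosphate synthase on the same chromosome, by 1.21, and Lgi2 and Rtn4rl2, both known from neurons, by 1.3 and 1.25.

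The largest increases were smaller and often in genes of low level. Tnn, the matrix protein tenascin-N, had 54.5, 24.2 and 47.0 CPM in A3, against 10.4, 4.91 and 8.17 CPM in Rosa, a log2 difference of 2.41 (SE 0.07, edgeR adjusted p = 0.000149). Gnao1, a G protein alpha subunit on chromosome 8, had 21.1, 11.3 and 16.1 CPM in A3, against 2.65, 2.43 and 2.5 CPM in Rosa (2.64, SE 0.17, edgeR adjusted p = 0.00158). The groups did not overlap for either gene. Agap2, a GTPase-activating protein, had 33.2, 6.89 and 30.8 CPM in A3, against 6.86, 1.13 and 6.81 CPM in Rosa (2.29, edgeR adjusted p = 0.000737). Alpl, tissue-nonspecific alkaline phosphatase, had 21.5, 8.29 and 37.0 CPM in A3, against 2.58, 2.56 and 10.9 CPM in Rosa (2.15, edgeR adjusted p = 0.0327), and its groups overlapped.

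Other large increases were in genes at low levels. Myocd, the smooth muscle coactivator myocardin, had 8.0, 0.356 and 7.58 CPM in A3, against 2.33, 0.174 and 1.54 CPM in Rosa (log2 difference 1.91, edgeR adjusted p = 0.00923). Col10a1, the collagen of hypertrophic cartilage, had 10.7, 0.939 and 3.72 CPM in A3, against 1.92, 0.174 and 0.494 CPM in Rosa (2.61, edgeR adjusted p = 0.003). Both genes were lowest with T12-LOH in A3 and in Rosa. Fxyd1 (log2 difference 3.37), Nkain2 (2.81), Mboat2 (2.44), Tppp (2.11), Draxin (1.89) and Pcp4l1 (1.87) completed the 12. Among well expressed genes, Igsf10 had 123, 38.0 and 99.1 CPM in A3, against 61.2, 19.2 and 43.1 CPM in Rosa (1.06, SE 0.06, edgeR adjusted p = 0.00119), although it lies on chromosome 3, whose median was -0.27. Epha3, an ephrin receptor on chromosome 16, differed by 0.88 and Slc6a17 on chromosome 3 by 1.0.

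**Figure D3:**
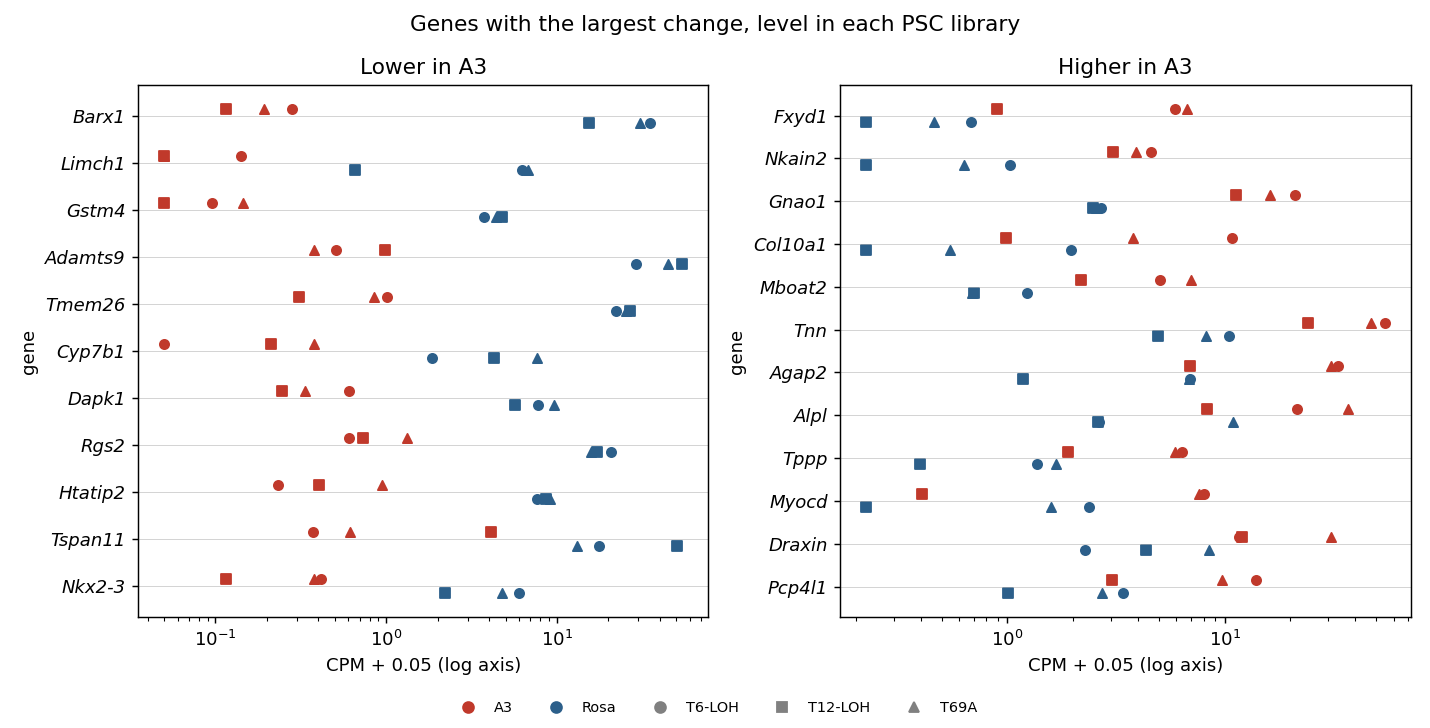
CPM + 0.05 (horizontal log axis) in each A3 and Rosa library for 11 of the 12 genes with the largest decrease (left) and the 12 with the largest increase (right) in A3; red points are A3 and blue points Rosa, and the symbols stand for the organoid lines. Barx1 lies below 0.5 CPM in all A3 libraries and above 15 CPM in all Rosa libraries, while the increases are smaller and some groups overlap.

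In the receptor's own family, only Tgfa and Areg were called besides Egfr, the targeted gene itself. Of 13 measured receptors, ligands and sheddases, these 3 were lower and none higher (23.1% called, against 12.6% of all tested genes). The median log2 difference was -0.14, against 0.000561 over all tested genes. The count was 0 lower without library 17 or 18, 1 without library 20 or 21, and 5 lower and 1 higher without library 23 or 24. Areg, amphiregulin, had 1.1, 2.65 and 2.64 CPM in A3, against 3.69, 5.82 and 4.42 CPM in Rosa (log2 difference -1.18, edgeR adjusted p = 0.0261). Tgfa had 1.06, 0.453 and 1.55 CPM in A3, against 2.23, 1.43 and 3.49 CPM in Rosa (-1.27, edgeR adjusted p = 0.026). For Tgfa the gap between groups was under 2 times the 0.737 CPM that organoid RNA could bring, and its part in the difference was not tested. Ereg, epiregulin and the most abundant ligand of the list, named after its values were seen, had 479, 714 and 438 CPM in A3, against 519, 549 and 462 CPM in Rosa (edgeR adjusted p = 0.791). Erbb2, the partner receptor, named likewise, had 69.1, 56.1 and 70.2 CPM in A3, against 64.6, 55.1 and 68.4 CPM in Rosa (edgeR adjusted p = 0.563).

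Of 29 immediate-early and ERK feedback genes, 5 were lower and 2 higher (24.1% called, against 12.6% of all tested genes). Without any 1 of libraries 17, 18, 20 and 21 the counts were 2 or 3 lower and 1 or 2 higher. Dusp1, a phosphatase that inactivates MAP kinases, had 116, 142 and 153 CPM in A3, against 180, 223 and 222 CPM in Rosa (log2 difference -0.61, SE 0.05, edgeR adjusted p = 0.00204), with no overlap. Fosl1, an AP-1 subunit, had 70.4, 152 and 103 CPM in A3, against 107, 201 and 147 CPM in Rosa (-0.51, edgeR adjusted p = 0.00499), lower in each organoid line although the groups overlapped. Egr1 (log2 difference -0.34), Etv1 (-0.31) and Il1rl1 (-1.47) were the other genes called lower. The genes called higher were Spry1, a feedback inhibitor of receptor tyrosine kinases on chromosome 3 (0.97), and Etv5, an ETS factor on chromosome 16 (0.27, where the chromosome median was 0.29).

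Inflammatory CAF markers were among the lists with the largest share of genes called lower. Of 27 measured, 9 were lower and 1 higher (37% called, against 12.6% of all tested genes), with a median log2 difference of -0.39. Lif, a cytokine that acts on tumour cells through JAK/STAT, had 79.9, 154 and 113 CPM in A3, against 191, 265 and 197 CPM in Rosa (log2 difference -0.95, SE 0.11, edgeR adjusted p = 0.0123). Has1, a hyaluronan synthase, had 2.25, 3.46 and 1.84 CPM in A3, against 13.6, 18.1 and 7.42 CPM in Rosa (-2.35, SE 0.15, edgeR adjusted p = 0.00159). Both had groups that did not overlap. Cxcl5, a neutrophil chemokine, had 339, 381 and 418 CPM in A3, against 460, 717 and 678 CPM in Rosa (-0.69, edgeR adjusted p = 0.0134), also without overlap.

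The remaining markers called lower included both steps of prostaglandin E synthesis. Ptgs2, cyclooxygenase-2, had 906, 2073 and 1667 CPM in A3, against 1572, 2705 and 2078 CPM in Rosa (log2 difference -0.5, edgeR adjusted p = 0.0361), and Ptges is described above. Efemp1 (-1.47), Dpt (-1.76), Il11 (-1.58) and Cxcl2 (-0.86) were lower as well. Il6 had 26.5, 97.6 and 53.5 CPM in A3, against 125, 235 and 117 CPM in Rosa, groups that did not overlap, but it missed the threshold (log2 difference -1.53, SE 0.29, edgeR adjusted p = 0.0825). Lcn2, lipocalin-2, was the marker that went the other way, with 288, 746 and 844 CPM in A3, against 175, 505 and 496 CPM in Rosa (0.68, edgeR adjusted p = 0.00253). Without library 23 the count was 10 lower and 3 higher, and without any 1 of libraries 17, 18, 20 and 21 it was between 5 and 7 lower and 2 higher.

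NF-kappaB genes pointed the same way, with 6 of 24 called lower and none higher (25%, against 12.6% of all tested genes). Without library 23 or 24 the count was 10 lower and 1 higher, and without any 1 of the others 4 lower and at most 1 higher. Icam1, an adhesion molecule, had 5.74, 3.5 and 5.22 CPM in A3, against 20.3, 12.8 and 23.2 CPM in Rosa (log2 difference -1.96, SE 0.11, edgeR adjusted p = 0.00113). Birc3, an inhibitor of apoptosis induced by NF-kappaB, had 25.9, 20.9 and 22.5 CPM in A3, against 46.4, 40.9 and 34.6 CPM in Rosa (-0.82, edgeR adjusted p = 0.00413). Neither gene's groups overlapped. The subunits Rela (-0.33) and Nfkb2 (-0.37) were lower, and so were Nfkb1 (-0.57) and Vcam1 (-0.63), which lie on chromosome 3.

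Interferon-stimulated genes gave no call over the 3 organoid lines, and the lines differed in direction. None of 36 tested was called by edgeR, against 12.6% of all tested genes, although the median log2 difference was -0.94. With T6-LOH all 36 were lower in A3 than in Rosa (median -1.49), and with T69A all 36 were lower (median -1.51). With T12-LOH 29 of the 36 were higher in A3 (median 0.45). Isg15, a ubiquitin-like interferon product named after its values were seen, had 36.3, 54.4 and 53.9 CPM in A3, against 124, 37.6 and 151 CPM in Rosa. Irf7, an interferon regulatory factor named likewise, had 26.9, 37.2 and 33.4 CPM in A3, against 81.2, 22.8 and 126 CPM in Rosa. For Isg15 and Irf7 the Rosa library of T12-LOH was at or below the level of the A3 libraries, and those of T6-LOH and T69A lay above them. This did not hold for the whole list, since for 6 of the 36 genes every Rosa library, that of T12-LOH included, lay above every A3 library. Of all tested genes, 18.3% had groups that did not overlap, in either direction, so the 6 do not set this list apart.

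The 12 MHC class I and antigen-processing genes, which interferon also induces, split the same way, with all 12 lower in A3 with T6-LOH and T69A (medians -0.82 and -1.04) and 11 higher with T12-LOH (median 0.46). The exception with T12-LOH was H2-K1, a classical class I chain. H2-K1 had 43.3, 137 and 113 CPM in A3, against 170, 169 and 458 CPM in Rosa (edgeR adjusted p = 0.234). Without library 23, 35 of the 36 interferon-stimulated genes and 10 of the 12 class I genes were called lower, and without library 24 the counts were the same, both from 2 pairs of libraries. Over all genes, 1123 of 14302 were called lower without library 23 and 1142 of 13935 without library 24. Without any 1 of libraries 17, 18, 20 and 21 none was called in either list. With 1 pair in each organoid line, the difference between organoid lines was not tested.

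Myofibroblastic markers were called in both directions. Of 27 measured, 3 were higher (Actg2, Lmod1 and Col12a1) and 3 lower (Thy1, Tnc and Cnn1), 22.2% in all against 12.6% of all tested genes. The median log2 difference was 0.32. More of the 27 were above than below Rosa in each organoid line (21, 15 and 19), and without library 23 the count was 10 higher and 4 lower, without library 24 it was 9 and 4, and without library 17 or 18 it was 1 and 1. Thy1, a surface glycoprotein of fibroblasts, showed the largest change, with 14.4, 1.26 and 6.78 CPM in A3, against 160, 55.9 and 111 CPM in Rosa (log2 difference -4.12, SE 0.46, edgeR adjusted p = 0.0403). Thy1 stayed at 328, 93.7 and 122 CPM in B4. Tnc, the matrix protein tenascin-C, had 1628, 2415 and 2247 CPM in A3, against 2769, 4564 and 3332 CPM in Rosa (-0.76, edgeR adjusted p = 0.00458). Actg2, a smooth muscle actin, had 44.0, 13.0 and 24.6 CPM in A3, against 22.2, 3.0 and 9.39 CPM in Rosa (1.41, edgeR adjusted p = 0.032). Acta2, the marker most often used for these cells, had 426, 103 and 202 CPM in A3, against 300, 30.6 and 109 CPM in Rosa, and missed the threshold (1.01, SE 0.32, edgeR adjusted p = 0.183).

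Of 26 TGF-beta and activin genes 7 were called higher and none lower (26.9% called, against 12.6% of all tested genes). The median log2 difference was 0.2. Tgfb2, a TGF-beta ligand, had 31.7, 14.1 and 28.1 CPM in A3, against 21.3, 6.82 and 12.7 CPM in Rosa (log2 difference 0.91, SE 0.13, edgeR adjusted p = 0.0117). Ltbp2, a microfibril-associated protein of the latent TGF-beta binding family, had 846, 440 and 896 CPM in A3, against 584, 315 and 689 CPM in Rosa (0.46, edgeR adjusted p = 0.00571). The inhibitory factors Smad6 (0.82), Smad7 (0.3) and Ski (0.34) were higher, as were Inhbb, an activin subunit (0.68), and the receptor Tgfbr1 (0.23). The members called thus include ligands and inhibitors of the pathway, and all 7 lie outside chromosomes 3, 8 and 16. Without any 1 of libraries 17, 18, 20 and 21, between 2 and 4 were called, all higher, and without library 23 or 24 the count was 8 higher and 1 lower. Of 23 BMP genes 4 were higher and 5 lower (39.1% called), with 2 higher and none lower without any 1 of libraries 17, 18, 20 and 21. Among them Smad9, a BMP effector on chromosome 3, had 29.9, 9.06 and 28.2 CPM in A3, against 11.5, 4.12 and 10.5 CPM in Rosa (1.32, SE 0.09, edgeR adjusted p = 0.00178), and Acvrl1, a type I receptor, differed by -1.66.

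Collagen genes and their cross-linking enzymes were split, with 5 higher and 3 lower of 32 (25% called, against 12.6% of all tested genes). The counts were 12 higher and 4 lower without library 23 or 24. Without any 1 of the others they were 2 to 4 higher and 1 to 3 lower. Lox, which cross-links collagen, had 1266, 842 and 1108 CPM in A3, against 901, 555 and 946 CPM in Rosa (log2 difference 0.44, edgeR adjusted p = 0.0216), while its relative Loxl2 had 191, 180 and 289 CPM in A3, against 403, 384 and 464 CPM in Rosa (-0.96, edgeR adjusted p = 0.00672). Col4a1 and Col4a2, basement membrane collagens that lie side by side on chromosome 8, were lower by 0.65 and 0.47 on the log2 scale. The 2 chains of type I collagen differed in opposite directions, and neither passed the threshold. Col1a1 had 8176, 4346 and 9240 CPM in A3, against 6482, 3984 and 5921 CPM in Rosa (0.36, edgeR adjusted p = 0.0776). Col1a2 had 702, 114 and 406 CPM in A3, against 1494, 672 and 1086 CPM in Rosa (-1.69, SE 0.4, edgeR adjusted p = 0.128). Col1a2 was lower in A3 in all 3 organoid lines.

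Among other matrix genes, Mmp2, gelatinase A on chromosome 8, had 38.6, 39.5 and 24.4 CPM in A3, against 104, 153 and 93.5 CPM in Rosa (log2 difference -1.78, SE 0.13, edgeR adjusted p = 0.00458). Lum, the proteoglycan lumican, had 4.46, 24.2 and 13.6 CPM in A3, against 38.9, 86.0 and 57.7 CPM in Rosa (-2.26, SE 0.3, edgeR adjusted p = 0.0385). The groups did not overlap for Mmp2 or Lum. Dcn, decorin, named after its values were seen, had 133, 1590 and 806 CPM in A3, against 776, 3220 and 1904 CPM in Rosa, and missed the threshold (-1.59, edgeR adjusted p = 0.154). Fbln1 was lower (-0.81), and Smoc1 (1.02), Smoc2 (1.86) and Sparc (0.35) were higher. Lama4 (0.61) and Lama2 (-1.22), laminin chains, differed in opposite directions.

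Of 29 Wnt and Hedgehog genes 8 were higher and 4 lower (41.4% called, against 12.6% of all tested genes). Of the 8, 5 lie outside chromosomes 3, 8 and 16. Without library 17 or 18 the count was 3 higher and 2 lower, and without library 20 or 21 it was 2 and 2. Nkd2, a Wnt inhibitor, had 107, 25.9 and 121 CPM in A3, against 54.3, 12.1 and 44.8 CPM in Rosa (log2 difference 1.17, SE 0.1, edgeR adjusted p = 0.00418). Ptch1, receptor and target of Hedgehog, had 100.5, 101 and 112 CPM in A3, against 146, 143 and 153 CPM in Rosa (-0.5, SE 0.05, edgeR adjusted p = 0.00325). Gli2, a Hedgehog effector, was lower as well (-0.75), while the pathway's receptor component Smo was higher (0.2). Sfrp2, a secreted Wnt modulator on chromosome 3, had 118, 18.7 and 61.6 CPM in A3, against 57, 7.42 and 32.2 CPM in Rosa (1.08, edgeR adjusted p = 0.00223).

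Of 42 mesenchymal and gut mesoderm transcription factors 7 were higher and 8 lower (35.7% called, against 12.6% of all tested genes). Without any 1 of libraries 17, 18, 20 and 21 the counts were 1 or 2 higher and 5 to 7 lower. Prrx2, a mesenchymal homeobox factor, had 83.9, 27.2 and 56.0 CPM in A3, against 23.4, 10.9 and 23.9 CPM in Rosa (log2 difference 1.47, SE 0.14, edgeR adjusted p = 0.00723). Twist2, a basic helix-loop-helix factor, had 62.9, 121 and 56.9 CPM in A3, against 99.2, 214 and 114 CPM in Rosa (-0.83, edgeR adjusted p = 0.003). Isl1, a homeobox factor, had 8.69, 10.0 and 8.1 CPM in A3, against 19.0, 19.6 and 14.3 CPM in Rosa (-0.98, edgeR adjusted p = 0.00429), and was at 0 CPM in all 3 B4 libraries. Six2 (0.58), Foxd1 (0.62), Foxc1 (0.43) and Osr1 (0.42) were higher, and Gata6 (-0.42), Tbx3 (-0.53) and Zeb1 (-0.41) lower. Hox genes, which keep a cell's position along the body axis, were little changed, with 1 higher (Hoxc10, 0.89) and 1 lower (Hoxb13, -2.06) of 30 (6.67% called). Neither direction had a call without any 1 of libraries 17, 18, 20 and 21.

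Glycolysis and hypoxia genes included some of the steepest falls among the lists, with 5 lower and 1 higher of 30 (20% called, against 12.6% of all tested genes). Without library 20 or 21, 1 or 2 were lower. Slc16a3, the lactate exporter MCT4, had 3.81, 2.78 and 7.34 CPM in A3, against 64.9, 65.3 and 91.0 CPM in Rosa (log2 difference -4.07, SE 0.19, edgeR adjusted p = 0.00287). Aldoc, aldolase C, had 0.735, 0.518 and 0.471 CPM in A3, against 9.61, 5.34 and 13.2 CPM in Rosa (-3.93, SE 0.29, edgeR adjusted p = 0.00214). Slc2a3, the glucose transporter GLUT3, had 4.09, 2.56 and 7.77 CPM in A3, against 14.5, 11.8 and 19.9 CPM in Rosa (-1.78, edgeR adjusted p = 0.00444). The groups did not overlap for these genes. B4 was also low, with 21.4, 10.5 and 20.7 CPM for Slc16a3, 0.49, 0.518 and 0.685 CPM for Aldoc, and 2.71, 2.59 and 2.7 CPM for Slc2a3. Aldoc had 1.06 CPM in C5 and 2.78 CPM in D4, against 13.2 CPM in PSC5 Rosa. Slc2a3 had 2.91 and 5.35 CPM there, against 20 CPM. The list as a whole did not follow Slc16a3, Aldoc and Slc2a3, with a median of -0.08, and Hk2, hexokinase 2, was higher (0.31).

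Of 25 cholesterol synthesis genes 4 were called lower (Fdps, Cyp51 and Srebf2 among them) and none higher, 16% against 12.6% of all tested genes. The median log2 difference was -0.28. The count was 1 without library 17 or 18 and 5 or 6 without any 1 of the others. Fdps, farnesyl diphosphate synthase on chromosome 3, had 174, 174 and 164 CPM in A3, against 233, 318 and 272 CPM in Rosa (log2 difference -0.68, edgeR adjusted p = 0.0138). Srebf2, the transcription factor of the pathway, had 527, 603 and 585 CPM in A3, against 649, 792 and 685 CPM in Rosa (-0.31, edgeR adjusted p = 0.0148). The organoid lines differed here too, with medians of -0.0356 with T6-LOH, -0.559 with T12-LOH and -0.335 with T69A. Of 27 amino acid stress and unfolded protein genes 8 were lower and 2 higher (37% called), but 1 was lower without library 17 or 18. None was called without library 20 or 21. Atf4, the main factor of the amino acid response, differed by -0.32, Xbp1 by -0.26 and the chaperone gene Hsp90b1 by -0.29.

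Circadian clock genes had the largest share of members called of the 38 lists, 9 of 19 (47.4%, against 12.6% of all tested genes), with 7 higher and 2 lower. The clock runs on a loop in which the Clock and Arntl proteins switch on their own repressors through E-boxes, and Nr1d1 and Nr1d2 repress Arntl through elements they share with ROR proteins such as Rora. Nr1d1, which encodes REV-ERB alpha, had 60.6, 31.8 and 44.3 CPM in A3, against 33.2, 17.4 and 21.9 CPM in Rosa (log2 difference 0.91, SE 0.06, edgeR adjusted p = 0.00169). Nr1d2, which encodes REV-ERB beta, had 110.3, 98.3 and 94.5 CPM in A3, against 76.9, 76.9 and 67.7 CPM in Rosa (0.45, SE 0.05, edgeR adjusted p = 0.00616). Arntl, which encodes BMAL1, had 31.7, 33.4 and 35.4 CPM in A3, against 38.1, 43.0 and 43.7 CPM in Rosa (-0.32, SE 0.06, edgeR adjusted p = 0.0177). For Nr1d2 and Arntl the groups did not overlap. Rora (0.4), Dbp (0.69), Tef (0.27), Clock (0.25) and Nfil3 (0.23) were also higher.

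Without any 1 of libraries 17, 18, 20 and 21, 1 or 2 of the 19 clock genes were called. Those fits called fewer genes of all kinds, 122 to 147 higher and 189 to 211 lower of 13824 to 14274 tested. The drop is therefore not particular to the clock genes. The labels do not state the hour at which the cultures were collected, and its part in the result was not tested. Of the clock genes called, Arntl and Nfil3 carry the letters TAGGTCA, the core to which REV-ERB and ROR proteins are known to bind, on either strand of a promoter window, and 2.97% of the 27025 genes with a window do. They are printed for that reason, with the match in capitals (where it reads TGACCTA, it lies on the other strand), for Arntl from its second annotated start (chr7:113207261-113207560, plus strand) and for Nfil3 (chr13:52980990-52981289, minus strand).
Arntl: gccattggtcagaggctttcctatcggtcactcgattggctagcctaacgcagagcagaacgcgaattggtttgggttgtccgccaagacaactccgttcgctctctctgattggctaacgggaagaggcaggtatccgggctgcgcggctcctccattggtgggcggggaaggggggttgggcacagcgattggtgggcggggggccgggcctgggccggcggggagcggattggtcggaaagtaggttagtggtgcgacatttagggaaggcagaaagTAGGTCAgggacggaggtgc
Nfil3: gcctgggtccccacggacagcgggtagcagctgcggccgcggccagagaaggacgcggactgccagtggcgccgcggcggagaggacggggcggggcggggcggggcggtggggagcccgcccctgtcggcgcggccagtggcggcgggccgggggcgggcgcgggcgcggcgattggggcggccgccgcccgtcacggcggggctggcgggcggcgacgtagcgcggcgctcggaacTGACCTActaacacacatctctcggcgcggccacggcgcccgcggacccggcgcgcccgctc
An E-box, CACGTG, stands in a window of 5 of the 16 clock genes with a window, called or not. It stands in 1 of the 8 called clock genes with a window (Tef) and in 8.09% of all genes with a window. The D-box TTATGTAA, read on both strands, stands in 1 of the 16, in none of the 8 and in 1.11% of all genes. A match in these letters is no evidence of binding.

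**Figure D4:**
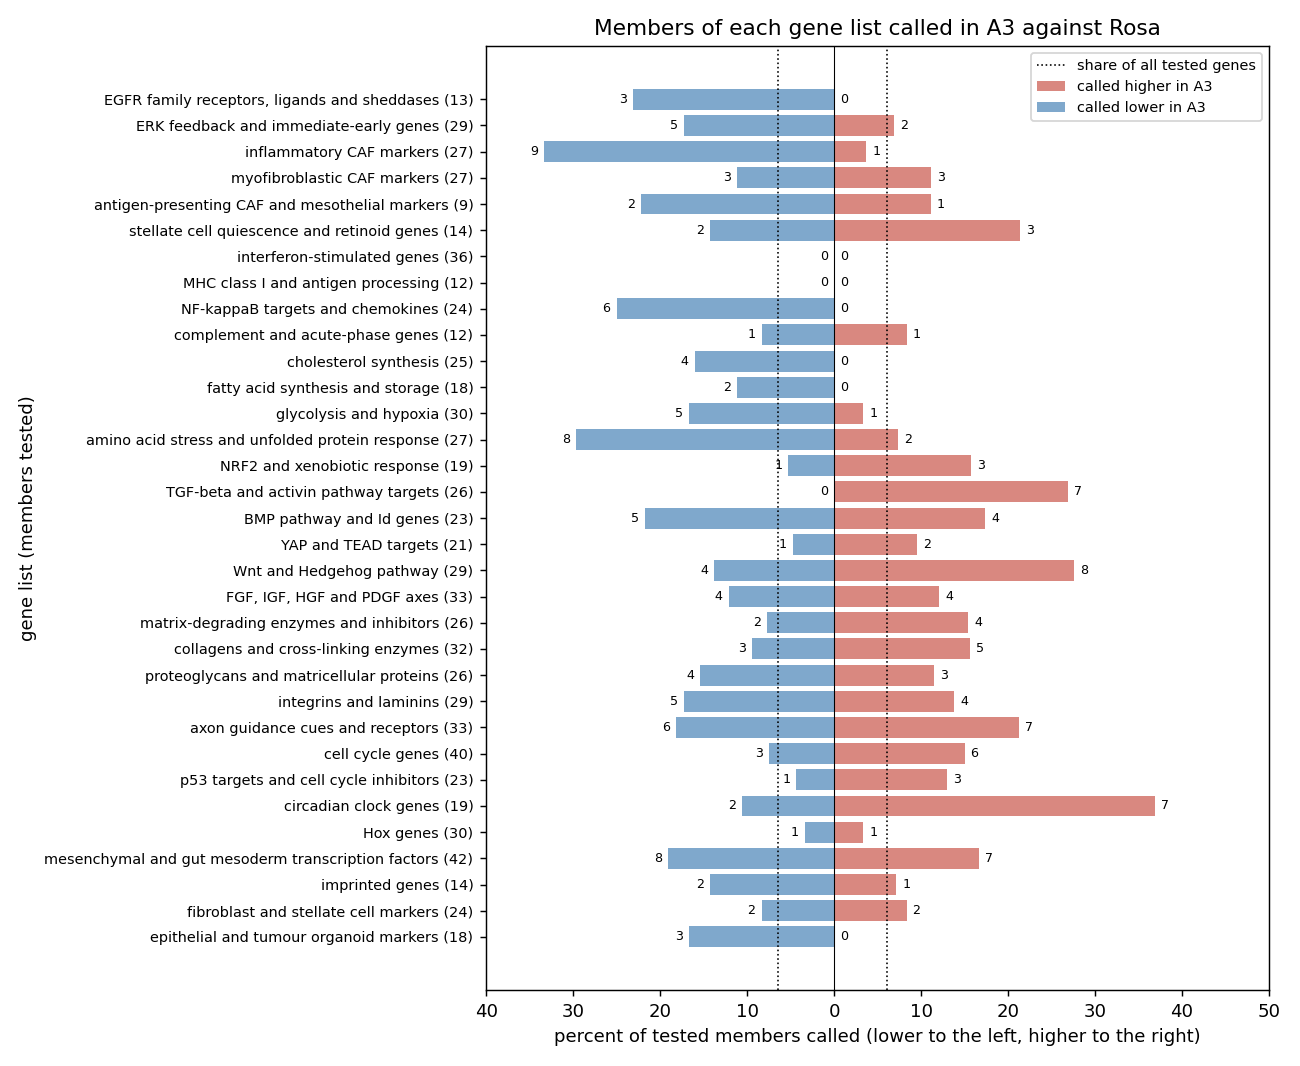
Percent of the tested members of each gene list with at least 9 tested members (vertical axis, with the number tested) called lower in A3 (blue, to the left) or higher in A3 (red, to the right), with the number called beside each bar; dotted lines mark the 6.44% lower and 6.14% higher of all tested genes. Inflammatory CAF markers, NF-kappaB genes and amino acid stress genes lie mostly on the left, TGF-beta, Wnt and Hedgehog, and clock genes mostly on the right, and interferon-stimulated and MHC class I genes have no bar.

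Proliferation genes did not shift as a group. Of 40 cell cycle genes 6 were higher and 3 lower, 22.5% against 12.6% of all tested genes, with a median log2 difference of -0.04. Without any 1 of libraries 17, 18, 20 and 21 the counts were 0 and 1. Rrm2, a subunit of ribonucleotide reductase, had 169.5, 144 and 168 CPM in A3, against 119, 120.1 and 116 CPM in Rosa (log2 difference 0.43, edgeR adjusted p = 0.0115). Outside chromosomes 3, 8 and 16 the counts were 2 higher and 1 lower of 33. Of 33 axon guidance genes 7 were higher and 6 lower (39.4% called), and outside chromosomes 3, 8 and 16 the counts were 4 and 2 of 24. Without any 1 of libraries 17, 18, 20 and 21, 3 were higher and 1 or 3 lower. Among those called lower, Sema6a, a transmembrane semaphorin, had 1.01, 0.842 and 0.518 CPM in A3, against 9.96, 7.16 and 8.46 CPM in Rosa (-3.42, SE 0.22, edgeR adjusted p = 0.00163). Plxnd1, a semaphorin receptor, was higher (0.73), and Slit3, a ligand of Robo receptors, lower (-1.12). Over all 38 lists, 88 of 774 distinct tested members were called higher and 103 lower, against 6.14% and 6.44% of all tested genes. List members as a whole were thus called more often than other genes, and the lists were chosen with earlier results of these data known.

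A3 was then set against B4, a clone of the same PSC4 line, without the Rosa libraries. Of 13595 genes tested, 6143 (45.2%) were called, 3041 higher and 3102 lower in A3, so the 2 KO clones differed from each other in more genes than A3 differed from Rosa. The chromosome-wide shifts of A3 and B4 differ, as given above, and their part in these calls was not tested. Serpine2, a protease inhibitor, had 312, 60.04 and 281 CPM in A3, against 1.73, 0.319 and 0.984 CPM in B4 (log2 difference 7.71, SE 0.14, edgeR adjusted p = 2.57e-05), while it did not differ past the threshold between A3 and Rosa (edgeR adjusted p = 0.31). Cadm2, an adhesion molecule on chromosome 16, had 5.61, 18.6 and 11.8 CPM in A3, against 0, 0.0398 and 0 CPM in B4. In the other direction, Dapk1 had 0.551, 0.194 and 0.282 CPM in A3, against 29.0, 20.0 and 40.9 CPM in B4 (-6.46, edgeR adjusted p = 0.000184), and Slc38a1, low in A3, had 92.0, 110.4 and 104 CPM in B4 (-2.44, edgeR adjusted p = 0.000184).

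PSC5 gave a comparison with its own control. Of the 845 genes called higher in A3, C5 and D4 were both above PSC5 Rosa for 299 (35.4%), and of the 886 called lower both were below it for 389 (43.9%). Over all 13758 tested genes, both were on the same side as A3 for 35.6%. The A3 effect and the mean effect of C5 and D4 were then tested against each other over all 12 stellate cell libraries, with the 1 library of each PSC5 line assumed to vary as the PSC4 lines do. Of 15336 genes, 279 (1.82%) differed, 163 higher and 116 lower in A3. Egfr did not differ past the threshold (A3 effect minus PSC5 effect -0.72, SE 0.29, edgeR adjusted p = 0.266), with 112 CPM in C5 and 351 CPM in D4, against 427 CPM in PSC5 Rosa.

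Several of the genes at the top of the A3 comparison did differ. They were chosen by their A3 change, which enters this test too, so they do not show how often the effects differ. Slc38a1 had 78.1 CPM in C5 and 82.2 CPM in D4, against 58.0 CPM in PSC5 Rosa, and the A3 effect was lower by 2.14 on the log2 scale (SE 0.15, edgeR adjusted p = 0.00104). Barx1 (difference of effects -6.82), Adamts9 (-6.69), Rgs2 (-5.2), Dapk1 (-4.76), Slc16a3 (-3.27), Has1 (-2.68) and Ptges (-2.36) differed in the same direction. Type I collagen showed the opposite order of clones. Col1a2 had 3.01 CPM in C5 and 36.9 CPM in D4, against 1432 CPM in PSC5 Rosa, a far wider gap than in A3 (difference of effects 5.44, SE 0.55, edgeR adjusted p = 0.017). Nr1d1 was higher in both, with 57.7 CPM in C5 and 76.8 CPM in D4, against 23.9 CPM in PSC5 Rosa, and the effects did not differ past the threshold (difference -0.56, SE 0.14, edgeR adjusted p = 0.106).

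**Figure D5:**
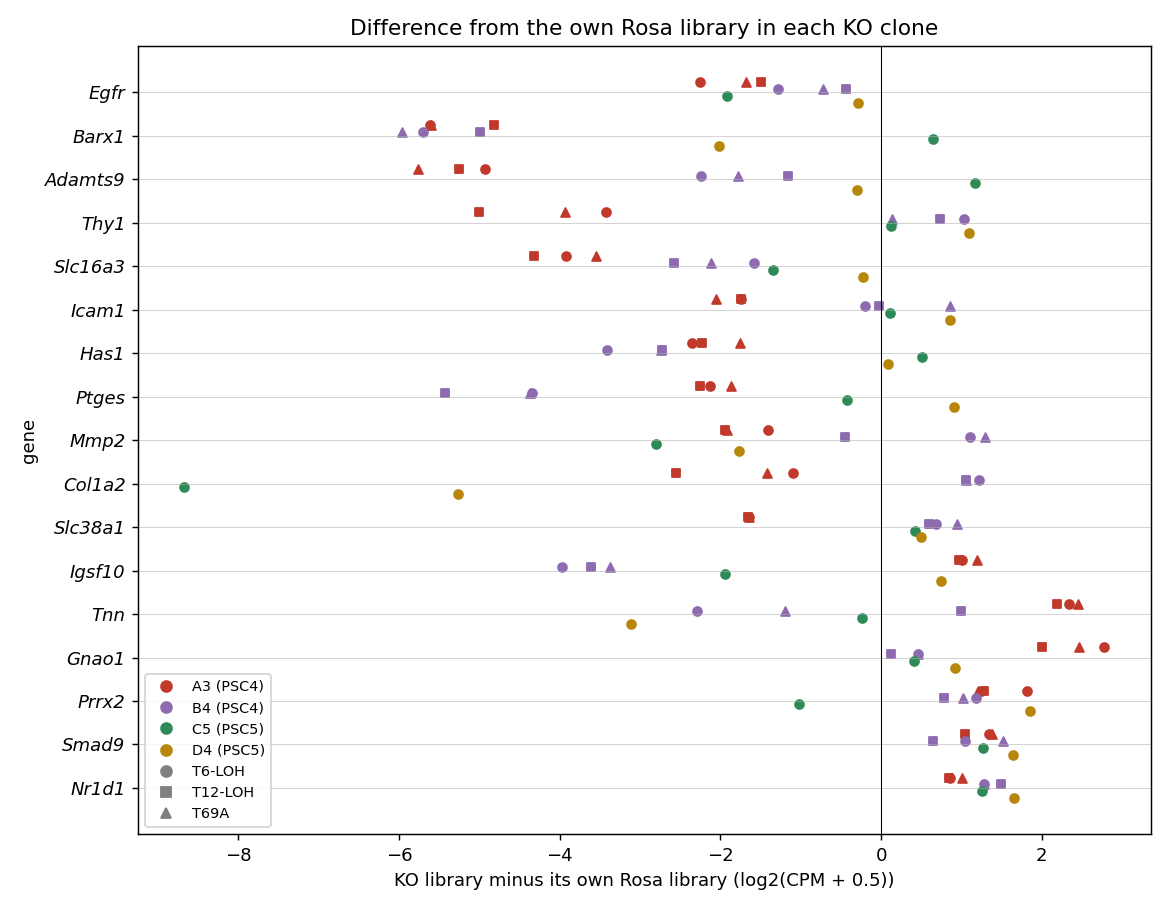
Difference on the log2(CPM + 0.5) scale (horizontal axis) of each KO library from the Rosa library of its own parent line and organoid line, for 17 genes (vertical axis); colours stand for the clones and symbols for the organoid lines, and A3 and B4 share their Rosa libraries. Barx1 is low in A3 and B4, Thy1 and Slc38a1 are below their control in A3 and above it in B4, C5 and D4, Col1a2 is lowest in C5 and D4, and Nr1d1 is above its control in every KO library.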

How the data were processed

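RNA was extracted from sorted stellate cells per the labels' protocols, and the deposited files hold, per transcript, Salmon 1.9.0 estimated counts and TPM, with GRCm39 as the build, as the submitters' processing notes say. The labels state neither the strand setting nor the transcript annotation version. Of 117135 transcripts, 115973 (99.0%) were matched by identifier to GENCODE names, and expected counts were summed per gene and rounded to whole numbers. Transcripts without a match held 0.374 to 0.443% of counts. The deposited TPM served for transcript levels and 1 alternative.

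A3 and Rosa were compared with edgeR 4.0.16 (glmQLFit, robust, and glmQLFTest in R 4.3.3), TMM scaling, filterByExpr and organoid line as a block. SE is the log2 difference divided by the square root of F. Differences per library are on log2(CPM + 0.5). No pair of libraries within a group, each from its own organoid line, agreed within counting noise, so none was treated as a duplicate. Alternatives used DESeq2 1.42.0 and limma 3.58.1. Named were Egfr, per direction the 12 protein-coding genes with the largest change and 6 more with the smallest p, set markers, list members that were called, and 5 genes per direction in each further comparison. The text gives part of these, and a few genes are not reported here. The members and lists were chosen with earlier results of these data known.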

Additional observations from a re-analysis of the deposited data

Results flagged for a closer look

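The A3 effect differed from the mean effect of the PSC5 clones C5 and D4 for 22 of the genes named here, by the test of that difference in edgeR over all 12 stellate cell libraries. Over all genes 1.82% differed. Genes were named for their change in the same A3 and Rosa libraries, or by this test itself. The 22 are therefore no measure of how often the effects differ. Among genes called lower in A3, the difference of effects on the log2 scale was -6.82 for Barx1, -6.69 for Adamts9, -5.2 for Rgs2, -4.76 for Dapk1, -3.27 for Slc16a3, -2.96 for Htatip2, -2.68 for Has1, -2.36 for Ptges, -2.14 for Slc38a1, -1.28 for Gli2 and -1.21 for Rtn4rl2. Among genes called higher in A3, it was 5.4 for Col10a1, 5.3 for Mboat2, 1.96 for Gnao1, 1.75 for Lox, 1.68 for Igsf10, 1.64 for Foxd1, 1.3 for Ltbp2 and 1.08 for Epha3, and -0.8 for Rora. The collagen chains Col1a1 and Col1a2, not called in A3 against Rosa, differed by 1.28 and 5.44. Each PSC5 line has 1 library, so its own spread is not known.

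Interferon-stimulated genes moved in opposite directions between organoid lines, with a median A3 minus Rosa difference of -1.49 with T6-LOH, 0.45 with T12-LOH and -1.51 with T69A. This difference was not tested, since each organoid line has 1 pair of libraries.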

How the results depend on the processing

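The counts of genes called higher and lower in A3 stayed within 1.5 times of 845 and 886 with DESeq2 (816 and 865), limma voom, 2 other normalizations and 2 other filters. They were 12 and 59 with no organoid block, 472 and 572 with 9 PSC4 libraries, 483 and 588 with 12 stellate cell libraries, and 393 and 430 with limma on log2(TPM + 1). Outside chromosomes 3, 8 and 16, an alternative chosen after seeing the data, they were 503 and 551. With each library left out in turn they ranged from 122 to 1065 and from 189 to 1142. Egfr stayed between -1.97 and -1.59 on the log2 scale with a library left out, and with no filter on low counts it was -1.81 and past the threshold no longer. The 6143 genes called between A3 and B4 became 3747 to 4809 with a library left out. The 279 genes whose A3 effect differed from the PSC5 effect became 473 with DESeq2 and 84 to 121 with an A3 library left out. The mitochondrial share differed by 0.171 percentage points, by 0.542 as a share of TPM, and by 0.0537 to 0.291 with a library left out. Of 122 called genes named here, 121 stayed called with DESeq2, 15 with no organoid block and 64 to 114 with a library left out, and none turned direction in these fits. Of the genes not called, Ereg lay between -0.102 and 0.15 and Cadm2 between -0.11 and 0.336 with a library left out. The causes were not tested. The reported fit pairs the A3 and Rosa libraries by organoid line, since each A3 library has a Rosa library grown with the same organoid line. With 3 libraries of 1 clone, clone and genotype cannot be told apart.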
